A study of Mus musculus with 2 samples.

Results

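Organic ion and multidrug transporters were examined in mouse intestine as 4 gene families: Slco, Slc22a, Abcb and Abcc. They were every gene whose name in the scanner files began with one of these family names followed by a number, on spots that were not controls on either array. This gave 94 of 41174 probes and 59 of 26582 gene or transcript names, with 15 Slco, 24 Slc22a, 10 Abcb and 10 Abcc genes. Of the 94 probes, 80 matched a RefSeq gene by accession, and 0 of these carried a different symbol there.

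Total intestinal RNA of male mice, 20 weeks old and on a normal diet, was compared between gut-specific Gpcpd1 deficient animals (genotype GDE5 KO) and wild-type animals. Gpcpd1 encodes GDE5, an enzyme that splits glycerophosphocholine into choline and glycerol phosphate. Both RNAs were hybridised together on each of 2 dual-colour Agilent arrays. The labels put the knockout in the Cy3 channel of replicate 1 and in the Cy5 channel of replicate 2, with the wild type in the other channel; the RNAs are called knockout-labelled and wild-type-labelled here. The design text mentions 5 mice. Not given in the sources used here are whether their RNA was pooled, whether the 2 arrays share extracts, which stretch of intestine was taken, which promoter drove the deletion and which exons it removed. The spread behind each p-value is thus that between 2 hybridisations and may be technical, and an exact permutation test over 2 arrays cannot reach 0.05. Values are log2 ratios of knockout-labelled RNA over wild-type-labelled RNA, given per array and as mean ± SD (n = 2 arrays). Signals are the scanner software's processed intensities, in arbitrary units that cannot be set against those of another probe.

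The solute carriers of the Slco family, also called OATPs, take up bile salts, steroid conjugates, prostaglandins, thyroid hormones and drugs. Slc22a carriers move organic cations, organic anions and zwitterions such as carnitine. Abcb and Abcc proteins bind and hydrolyse ATP, and many of them pump drugs, conjugates or lipids out of cells; in the enterocyte, P-glycoprotein and Abcc2 face the gut lumen and send their substrates back to it, while Abcc3 sits on the basolateral side.

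Gpcpd1 was not lower in knockout-labelled RNA: its brightest probe gave 0.02 in replicate 1 and 1.23 in replicate 2, a mean of 0.63 ± 0.85 (SD, n = 2; limma with Benjamini-Hochberg adjustment, adjusted p = 0.791). The other 3 Gpcpd1 probes averaged 0.82 ± 0.07, 0.45 ± 0.16 and -0.12 ± 0.25. Whether any probe lies in the deleted stretch is unknown, so every direction rests on the dye labels. Of 43379 gene spots, 75.3% were well above background in knockout-labelled RNA and 69.3% in wild-type-labelled RNA of replicate 1, and 70.3% in knockout-labelled and 76.1% in wild-type-labelled RNA of replicate 2, so that Cy3 had the larger share on both arrays. Enterocyte markers had a median ratio of -0.02 over 8 genes, of which 2 were higher and 2 lower on both arrays, and their summed signal was 808271 and 810888 in knockout-labelled RNA, against 758565 and 781286 in wild-type-labelled RNA. Markers of the proximal small intestine were higher in knockout-labelled RNA for all 4 tested of 5 listed, with a median of 0.95 and a summed signal of 39618 and 43465 there, against 26536 and 30388 in wild-type-labelled RNA. Called members were Lct, at 1.69 ± 0.03, and Fabp1, at 1.39 and 1.21 on the arrays (limma, adjusted p = 0.000833 and 0.00833). Of 3 distal small intestine markers 0 were higher and 1 lower on both arrays. Of 5 colon markers 2 were higher and 2 lower on both. All 3 tested Paneth markers were lower on both arrays, and 0 were called in any of these lists. The marker lists held 10 called genes in all, each with the same sign but 0 called with normexp and loess, loess alone, median centring or no filter on dim probes. Skeletal muscle markers had a median of 2.01 over 6 genes, with 4 called. Their summed signal was 3478 and 3534 in knockout-labelled RNA, against 2175 and 2101 in wild-type-labelled RNA. The muscle markers not called did not follow: Acta1 was lower on both arrays, at -0.14 and -0.04, and Ckm gave 0.28 and -0.17. Markers of the male reproductive tract had a median of -3.41 over the 2 tested of 5, both called. Their summed signal was 8.03 and 14.0 in knockout-labelled RNA, against 124 and 150 in wild-type-labelled RNA. Kidney markers had a median of 0.27 over 4 tested of 8, with Kap called, 2 higher on both arrays and 2 with opposite directions. Hepatocyte markers had a median of -0.37 over 6 tested of 8, with Tat called and Alb and Cyp7a1 too dim to test. While 4 of the 6 were lower on both arrays, Apoh was higher on both, at 0.02 and 0.04, and Ttr gave -0.08 and 0.59. The part of these tissues in the transporter ratios was not tested.

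Of the 59 transporter genes, 37 had a probe that stood well above background on both arrays for at least 1 and the same genotype, and entered the tests: 6 Slco, 14 Slc22a, 9 Abcb and 8 Abcc genes, among 18988 genes tested. Abcb and Abcc were thus nearly all measured, with only Abcb5, Abcc10 and Abcc12 too dim, whereas 9 of the 15 Slco genes and 10 of the 24 Slc22a genes were too dim. The untested Slco genes were Slco1a1, Slco1a6, Slco1b2, Slco1c1, Slco4c1, Slco5a1, Slco6b1, Slco6c1 and Slco6d1, and the untested Slc22a genes were Slc22a2, Slc22a3, Slc22a7, Slc22a14, Slc22a19, Slc22a20, Slc22a22, Slc22a26, Slc22a28 and Slc22a29. For 19 of these 22 genes no probe was well above background for either genotype on either array; the exceptions were Slc22a3, Slc22a19 and Slco1b2. Slco1b2, a liver uptake carrier of bile salts, was well above background for wild-type-labelled RNA in replicate 2 alone, and its signals were 7.93 and 4.21 in knockout-labelled RNA, against 13.3 and 10.5 in wild-type-labelled RNA. Slc22a3, the organic cation transporter OCT3, had signals of 18.0 and 14.0 in knockout-labelled RNA, against 11.2 and 20.0 in wild-type-labelled RNA. It was well above background with Cy3 on each array and with Cy5 on neither, and the genotype with the higher signal changed between the arrays.

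**Figure D1:**
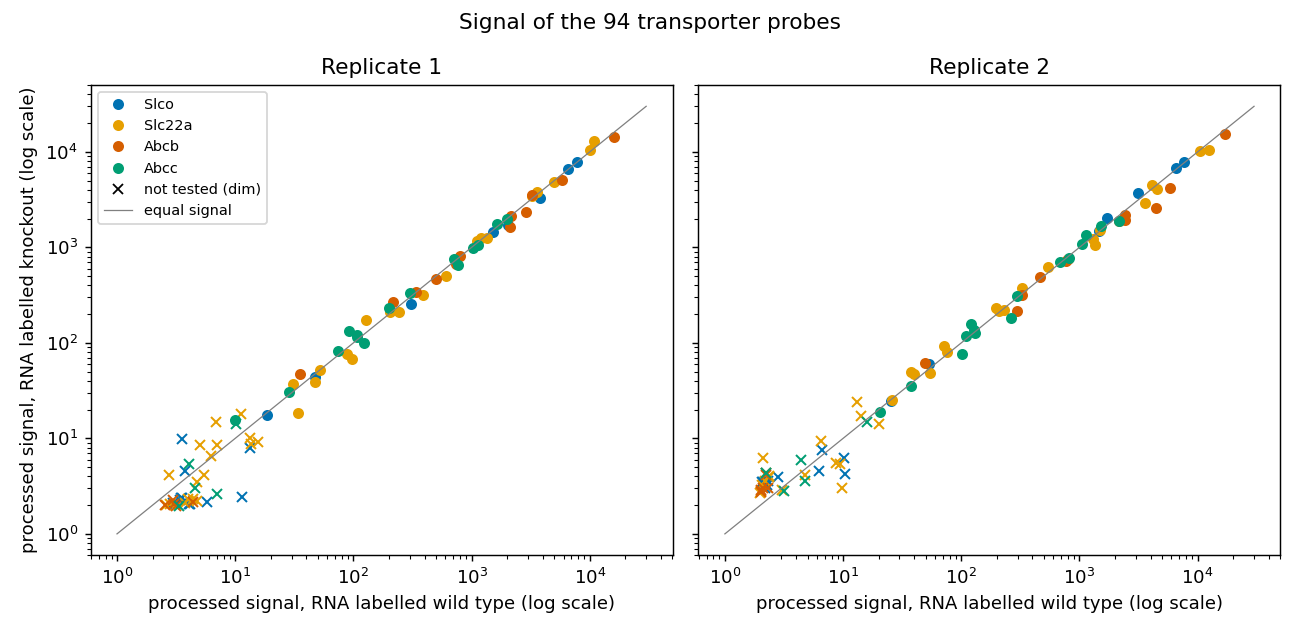
Processed signal of each transporter probe in knockout-labelled RNA against wild-type-labelled RNA, on log axes in arbitrary units and by array, with crosses for probes too dim to test. The 54 tested probes lie along the line of equal signal over several orders of magnitude, and the scatter widens at the dim end, where 35 of the 94 probes were well above background nowhere.

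None of the tested transporters passed the test of a difference between the genotypes. Limma with Benjamini-Hochberg adjustment over all genes called 0 of the 37, against 0.200% of all genes tested (0.132% higher and 0.0685% lower in knockout-labelled RNA), and each of the 37 had an adjusted p of 1.00. At this background even a list that behaves like all genes would hold none or hardly any call. At an unadjusted limma p under 0.05 there were 0 of 37, where 4.98% of all genes passed, and the smallest unadjusted p among the transporters was 0.0672, for Slc22a30. By size, 0 transporters were at least 1.5-fold higher on both arrays, against 0.542% of all genes, and 0 were at least 1.5-fold lower, against 0.295% (0.837% in either genotype direction). None was 1.5-fold apart in a dye direction either, which 0.585% of all genes were.

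The limits of the measurement were set by its 2 arrays. The median limma 95% interval of a transporter reached 0.41 to each side of its mean, and for 29 of the 37 it lay wholly within 1.5-fold, as it did for 67.9% of all genes. A change larger than 1.5-fold thus lies outside this interval for most of the tested transporters and within it for the other 8. These intervals rest on 2 arrays with 1 residual degree of freedom, and whether they cover variation among mice is unknown. They also hold for the software's ratios alone, and some means moved with the processing. A larger difference between the genotypes is therefore not excluded for any transporter. The SD between the arrays had a median of 0.13 over the transporters and 0.19 over all genes tested.

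The arrays opposed each other for most of the transporters, as they did for most genes. Both arrays put 8 of the 37 higher in knockout-labelled RNA, against 20.2% of all genes, and 7 lower, against 21.1%; the other 22 had opposite directions, against 58.7% of all genes. Among those 22, the Cy3 signal was the brighter on both arrays for 11 and the Cy5 signal for 11. Across the 37 transporters the ratios of replicate 1 and replicate 2 had a Pearson r of -0.15, and across all 18988 genes an r of -0.02, given as descriptions, since genes on the same arrays share their hybridisation. The median ratio was -0.02 over the transporters and -0.02 over all genes, and 22 of the 37 means lay below 0, as did 10815 of the 18988.

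**Figure D2:**
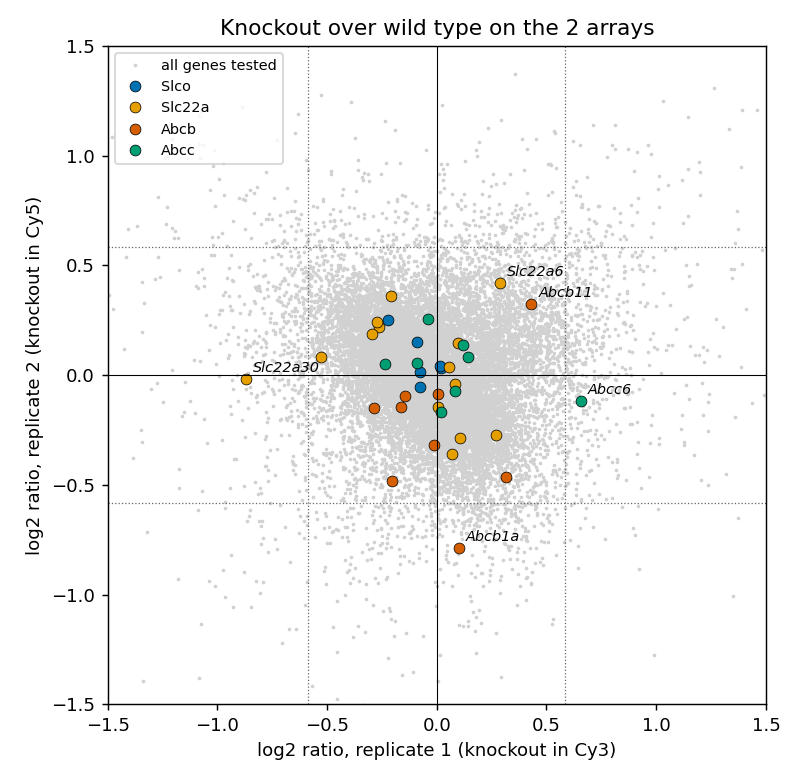
Log2 ratio of knockout-labelled RNA over wild-type-labelled RNA in replicate 2 against replicate 1, with transporters coloured by family over all genes tested in grey. The transporters lie in the middle of the grey cloud, with 22 of 37 in the quadrants where the arrays oppose each other; 67 other genes lie outside the axes.

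By family, the median ratio was 0.02 for Slco, -0.02 for Slc22a, -0.15 for Abcb and 0.06 for Abcc. Both arrays gave Abcc 0.05 and had Slc22a at 0.03 and 0.06. Slco had -0.08 in replicate 1 and 0.04 in replicate 2, and Abcb had -0.01 and -0.15. Of the 9 Abcb means 8 lay below 0, as did 57.0% of the means of all genes. This was the most uneven split of the 4 families with the software's ratios, although no Abcb gene was called. With normexp and loess, loess alone or median centring, 7 of the 9 Abcb means lay below 0. With loess alone or median centring, 5 of the 6 Slco means did. The family medians and splits have no test of their own.

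**Figure D3:**
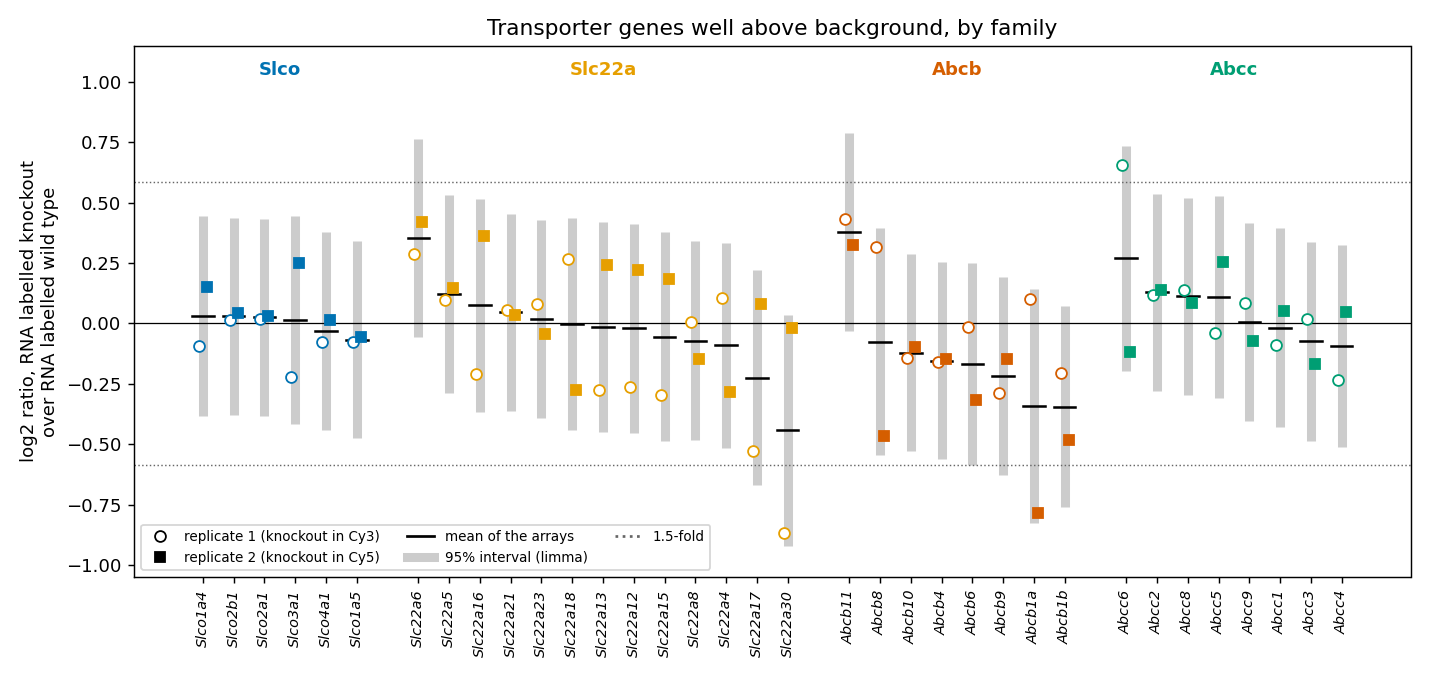
Log2 ratio of 35 of the 37 tested transporters by family, with an open circle for replicate 1, a square for replicate 2, a black bar for the mean, a grey bar for the limma 95% interval and dotted lines at 1.5-fold. The Slco means all lie close to 0, the Abcb means other than that of Abcb11 lie below 0, and the widest gaps between circle and square are those of Abcb1a, Slc22a30, Abcb8 and Abcc6.

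Among the Slco genes, the brighter carriers had similar signals for both genotypes. Slco2b1, an uptake carrier of steroid sulfates and drugs found in the enterocyte, had signals of 6566 and 6775 in knockout-labelled RNA, against 6496 and 6576 in wild-type-labelled RNA. Its ratio was 0.03 ± 0.02, with a 95% interval of -0.38 to 0.44. Slco2a1, the prostaglandin transporter, had signals of 7906 and 7858 in knockout-labelled RNA, against 7800 and 7688 in wild-type-labelled RNA, and a ratio of 0.03 ± 0.01. Both 95% intervals reached well to either side of 0, and neither sign is settled. With normexp and loess Slco2b1 was at -0.11 ± 0.04, below 0 on both arrays. With normexp and median centring Slco2b1 was at -0.17 and Slco2a1 at -0.014. The other tested probes of Slco2a1 gave a mean of -0.13 ± 0.19 and of 0.00 ± 0.37, so its probes did not share a direction.

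Slco4a1, a carrier of thyroid hormones and bile salts, had signals of 1433 and 1479 in knockout-labelled RNA, against 1513 and 1462 in wild-type-labelled RNA, and a ratio of -0.03 ± 0.07. Slco3a1, which carries prostaglandins, had 3274 and 3705 in knockout-labelled RNA, against 3819 and 3116 in wild-type-labelled RNA. Its ratios of -0.22 and 0.25 opposed each other, with Cy5 the brighter dye both times, and averaged 0.01 ± 0.33. The drug and bile salt carriers Slco1a4 and Slco1a5, which lie in a gene cluster on chromosome 6, were dim: Slco1a4 had 44.2 and 59.5 in knockout-labelled RNA, against 47.1 and 53.6 in wild-type-labelled RNA, and Slco1a5 had 17.4 and 24.6, against 18.4 and 25.5 in wild-type-labelled RNA. Slco1a5 was the single Slco gene lower on both arrays, at -0.07 ± 0.02, and was not well above background for wild-type-labelled RNA in replicate 1. The intervals of all 6 tested Slco genes lay within 1.5-fold.

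In the Slc22a family the carnitine and organic cation carriers are the ones best known from the gut. Slc22a5, the sodium-dependent carnitine transporter OCTN2, had signals of 3825 and 4543 in knockout-labelled RNA, against 3579 and 4102 in wild-type-labelled RNA. Its ratio was 0.12 ± 0.04 (95% interval -0.29 to 0.53). Its second tested probe ran the other way on both arrays, at -0.13 and -0.08, so the gene has no settled sign. Slc22a21, a related carnitine carrier of the mouse, had 1254 and 1519 in knockout-labelled RNA, against 1208 and 1481 in wild-type-labelled RNA, and a ratio of 0.05 ± 0.01. Slc22a4, the ergothioneine transporter OCTN1, had 3471 and 2938 in knockout-labelled RNA, against 3223 and 3581 in wild-type-labelled RNA, with opposite ratios of 0.11 and -0.29. These 3 genes are neighbours on chromosome 11, where their probes lie on mm9 at chr11:53678550-53678609, chr11:53764508-53764567 and chr11:53796841-53796900. The Slc22a21 probe shares 43 of 60 aligned bases with the second Slc22a5 probe. That is more than any other pair of transporter probes from different genes (the next pair shares 30). The signals of these 2 probes may therefore not be separate. Their ratios differed in sign, at 0.05 and 0.04 for Slc22a21 against -0.13 and -0.08. The brightest Slc22a5 probe, which gave the ratio of 0.12, is not part of this pair.

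Slc22a18, an imprinted gene of the family, showed an even reversal at its brightest probe, with ratios of 0.27 and -0.27. That probe had 13035 and 10406 in knockout-labelled RNA, against 10823 and 12581 in wild-type-labelled RNA. Its Cy3 signal was the brighter on both arrays and its mean was 0.00 ± 0.38. A second tested probe of Slc22a18 was lower on both arrays, at -0.20 and -0.05, a mean of -0.13 ± 0.10. Slc22a23 had a ratio of 0.02 ± 0.09 and its second probe -0.07 ± 0.08.

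Slc22a30 and Slc22a6 had the largest mean ratios of the family, both at low signal. Slc22a30 had 18.5 and 25.5 in knockout-labelled RNA, against 33.7 and 25.8 in wild-type-labelled RNA. The difference came from replicate 1, at -0.87, since replicate 2 gave -0.02, and the mean of -0.44 ± 0.60 was the largest in size of all 37 transporters (95% interval -0.92 to 0.04). Slc22a6, the organic anion transporter OAT1 known from the kidney, had 37.4 and 49.8 in knockout-labelled RNA, against 30.6 and 37.2 in wild-type-labelled RNA. It was higher on both arrays, at 0.29 and 0.42, with a mean of 0.35 ± 0.09 and a 95% interval of -0.06 to 0.76, and it was not called. Slc22a8, the kidney anion carrier OAT3, lies next to it on chromosome 19 and gave -0.07 ± 0.11. Slc22a12, the urate transporter URAT1, had ratios of -0.26 and 0.22. Slc22a13, another anion carrier, gave -0.27 and 0.24, and Slc22a16, a carnitine carrier known from the testis, -0.21 and 0.36, so that Cy5 was the brighter dye on both arrays for all of these 3.

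Slc22a15 showed how far probes of one gene could differ. Its brightest probe had 315 and 371 in knockout-labelled RNA, against 387 and 326 in wild-type-labelled RNA, and ratios of -0.30 and 0.19. Another probe was higher in knockout-labelled RNA on both arrays, at 0.43 and 0.24, and the remaining one gave 0.03 and 0.05. Of the 12 transporters with at least 2 tested probes, 8 had probes whose mean ratios differed in sign: Abcc1, Abcc4, Abcc5, Abcc9, Slc22a5, Slc22a15, Slc22a23 and Slco2a1.

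For Slc22a17, described as a cell surface receptor of lipocalin-2, 2 probes differed in whether they could be tested, and their sequences are shown to tell them apart. Both come from the array design, 5′ to 3′, on the minus strand of chromosome 14 of mm9.
Slc22a17 tested probe: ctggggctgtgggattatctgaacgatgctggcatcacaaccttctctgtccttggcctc
Slc22a17 dim probe: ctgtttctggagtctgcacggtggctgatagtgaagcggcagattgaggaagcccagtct
The tested probe, which covers chr14:55526424-55526738, 315 bases of genome for a probe of 60, had signals of 67.1 and 80.5 in knockout-labelled RNA, against 96.9 and 76.1 in wild-type-labelled RNA. Its ratios were -0.53 and 0.08, a mean of -0.22 ± 0.43. The dim probe, at chr14:55527415-55527474, had 14.9 and 23.8 in knockout-labelled RNA, against 6.85 and 13.2 in wild-type-labelled RNA. It was well above background only with Cy3 on each array, that is, for knockout-labelled RNA in replicate 1 and for wild-type-labelled RNA in replicate 2, so it did not enter the tests and no ratio is read from it.

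The Abcb pumps had lower values in knockout-labelled RNA for 5 of 9 genes on both arrays, higher values for 1 and opposite values for 3, where 21.1% of all genes were lower on both arrays. With normexp and loess 3 of the 9 were lower on both, and with normexp and median centring 2. Rodents have a pair of P-glycoproteins, the drug efflux pumps encoded by Abcb1a and Abcb1b, of which Abcb1a is the form known from the gut. Abcb1a had signals of 3493 and 2599 in knockout-labelled RNA, against 3259 and 4485 in wild-type-labelled RNA. The ratio was 0.10 in replicate 1 and -0.79 in replicate 2, where the software's error model gave a p of 0.000275 for that array alone, against 0.624 in replicate 1. The mean was -0.34 ± 0.63 (95% interval -0.83 to 0.14), and replicate 2 alone supplied the difference.

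Abcb1b had signals of 5067 and 4179 in knockout-labelled RNA, against 5838 and 5843 in wild-type-labelled RNA. It was lower on both arrays, at -0.20 and -0.48, with a mean of -0.34 ± 0.20 and a 95% interval of -0.76 to 0.07. A second tested probe had 1649 and 1907 in knockout-labelled RNA, against 2118 and 2175 in wild-type-labelled RNA, and ratios of -0.36 and -0.19. All 4 ratios of the 2 probes were thus below 0, yet the gene was not called. Another probe stayed dark at signals of 1.98 to 3.17; it was well above background for neither genotype on either array, and both sequences are shown to tell the tested probe from the untested one. Both lie on the plus strand of chromosome 5 of mm9.
Abcb1b second tested probe: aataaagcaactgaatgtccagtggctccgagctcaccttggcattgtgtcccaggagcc
Abcb1b dark probe: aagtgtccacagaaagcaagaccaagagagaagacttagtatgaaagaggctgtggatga
The tested one is at chr5:8861441-8861500. The dark one covers chr5:8827445-8827707, 263 bases of genome for a probe of 60. Abcb1a and Abcb1b are close relatives, so that some RNA of each may be read by probes of the other.

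Abcb4, which moves phosphatidylcholine across the membrane and is needed for bile in the liver, had signals of 14416 and 15471 in knockout-labelled RNA, against 16124 and 17134 in wild-type-labelled RNA. Its ratios of -0.16 and -0.15 nearly matched, with a mean of -0.15 ± 0.01 and a 95% interval of -0.56 to 0.25. Its second probe was well above background nowhere. Abcb1a, Abcb1b and Abcb4 are neighbours on chromosome 5, with their brightest probes at chr5:8747979-8748038, chr5:8865925-8865984 and chr5:8959108-8959167, and all 3 mean ratios lay below 0.

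Abcb11, the bile salt export pump of hepatocytes, was the single Abcb gene higher on both arrays, at a low signal of 47.5 and 62.2 in knockout-labelled RNA, against 35.2 and 49.7 in wild-type-labelled RNA. Its mean of 0.38 ± 0.08 was the second largest in size among the tested transporters after Slc22a30, with a 95% interval of -0.03 to 0.79 and no call. Abcb9, a lysosomal peptide transporter, had 2353 and 2176 in knockout-labelled RNA, against 2872 and 2412 in wild-type-labelled RNA, a ratio of -0.22 ± 0.10. The mitochondrial member Abcb10, which serves haem synthesis, gave -0.12 ± 0.03. Its second tested probe gave 0.02 and -0.06, and with normexp and loess its brightest probe gave -0.23 and 0.01. Abcb6, linked to porphyrin transport, gave -0.17 ± 0.22. Abcb8, another mitochondrial member, reversed between the arrays, at 0.32 and -0.47, with the Cy3 signal the brighter on both.

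No Abcc gene was lower on both arrays; Abcc2 and Abcc8 were higher on both and 6 reversed. Abcc2, the pump that sends glucuronide and glutathione conjugates into the gut lumen and bile, had signals of 1771 and 1664 in knockout-labelled RNA, against 1631 and 1510 in wild-type-labelled RNA. Its ratio was 0.13 ± 0.01 (95% interval -0.28 to 0.54). With normexp and loess Abcc2 reversed between the arrays, at 0.54 and -0.16. Abcc3, the basolateral counterpart, had 2003 and 1907 in knockout-labelled RNA, against 1976 and 2143 in wild-type-labelled RNA, and a ratio of -0.07 ± 0.13. Both ratios were small beside their 95% intervals. Abcc8, the sulfonylurea receptor SUR1, which regulates a potassium channel and is not known as a drug pump, gave 0.11 ± 0.04, and its relative Abcc9, SUR2, gave 0.01 ± 0.11. Abcc4, an exporter of cyclic nucleotides and prostaglandins, had 650 and 711 in knockout-labelled RNA, against 765 and 687 in wild-type-labelled RNA, with ratios of -0.24 and 0.05. Abcc5, which also exports cyclic nucleotides, gave 0.11 ± 0.21 at its brightest probe and -0.11 at each of the other tested probes.

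Abcc6, known for its part in preventing soft tissue calcification, was close to background, with 15.7 and 18.9 in knockout-labelled RNA, against 9.96 and 20.5 in wild-type-labelled RNA. Its ratio was 0.66 in replicate 1, where wild-type-labelled RNA was not well above background, and -0.12 in replicate 2.

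Abcc1, an exporter of leukotriene C4 and glutathione conjugates, had 1064 and 1097 in knockout-labelled RNA, against 1130 and 1057 in wild-type-labelled RNA, at its brightest probe, a ratio of -0.02 ± 0.10. A pair of dimmer probes was higher in knockout-labelled RNA on both arrays. Their sequences are shown because they overlap on the transcript, by the 19 bases in capitals, and yet gave different sizes. Both lie on the plus strand of chromosome 16 of mm9.
Abcc1 upstream probe: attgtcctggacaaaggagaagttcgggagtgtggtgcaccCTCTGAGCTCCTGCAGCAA
Abcc1 downstream probe: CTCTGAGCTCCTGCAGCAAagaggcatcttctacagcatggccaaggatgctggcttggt
The upstream probe, at chr16:14473557-14473616, had signals of 122 and 119 in knockout-labelled RNA, against 107 and 110 in wild-type-labelled RNA, for ratios of 0.19 and 0.11. The downstream probe, at chr16:14473598-14473657, had 134 and 157 in knockout-labelled RNA, against 91.5 and 122 in wild-type-labelled RNA, for ratios of 0.55 and 0.36. With their shared stretch the 2 are not independent readings, and the brightest Abcc1 probe did not share their direction.

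Single arrays gave some larger differences. The software's error model gave a p under 0.05 on at least 1 array for 5 of the 37 transporters, Abcb1a, Abcb1b, Abcb8, Slc22a17 and Slc22a30, against 20.3% of all genes tested. It gave one on both arrays in the same genotype direction for 0 of 37, against 1.41% of all genes. Of the 5, Abcb1b and Slc22a30 had the same direction on both arrays.

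The genes around these transporters were read from lists outside the 4 families. Over all genes tested, 20.2% were higher and 21.1% lower on both arrays, and 0.200% were called. Of 18 nuclear receptors and other regulators known to act on transporter genes, all tested, 6 were higher and 2 lower on both arrays and 0 were called, with a median of 0.00. Nr0b2, the bile acid induced repressor SHP, was at 0.36 ± 0.17, the aryl hydrocarbon receptor Ahr at 0.15 ± 0.01, and the oxysterol receptor Nr1h3 at -0.16 ± 0.05. The xenobiotic receptor Nr1i2 gave -0.28 and 0.02 and the bile acid receptor Nr1h4 gave -0.27 and 0.14, each with opposite directions. Among 29 other carriers of drugs, organic ions, bile acids, nucleosides and peptides, 24 were tested; 3 were higher and 8 lower on both arrays, 0 were called, and the median was -0.10. Slc47a1, the proton-coupled organic cation exporter MATE1, had -0.46 and -0.37, a mean of -0.41 ± 0.06. Abca1 and Abcg1, exporters of cholesterol, were at 0.31 ± 0.22 and 0.23 ± 0.18, and the apical drug pump Abcg2 at -0.17 ± 0.18. Of 8 scaffold genes of the apical membrane 2 were higher on both arrays, Msn at 0.23 ± 0.13 and Ezr at 0.06 ± 0.08, none was lower and 0 were called. All of these had an adjusted p of 0.982 or more in the limma fit.

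A different processing of the same spots moved single values and again gave no call among the transporters. With normexp background correction and loess in place of the software's ratios, Abcb1a gave 0.45 and -0.93, and Abcb1b, which had been lower on both arrays, gave 0.22 and -0.62. Abcb4 stayed below 0 at -0.24 ± 0.11. Of the transporters with larger software ratios at low signal, Abcb11 gave 0.08 ± 0.01, Slc22a6 0.16 ± 0.23, Slc22a30 -0.07 ± 0.23 and Abcc6 0.06 ± 0.11. The transporters' r between the arrays was -0.59 in that processing, against -0.15 with the software's ratios, so that more of them followed the dye. As the RNA is of whole tissue, a lower value can stand for fewer cells of a type or for less RNA per cell, which cannot be told apart.

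**Figure D4:**
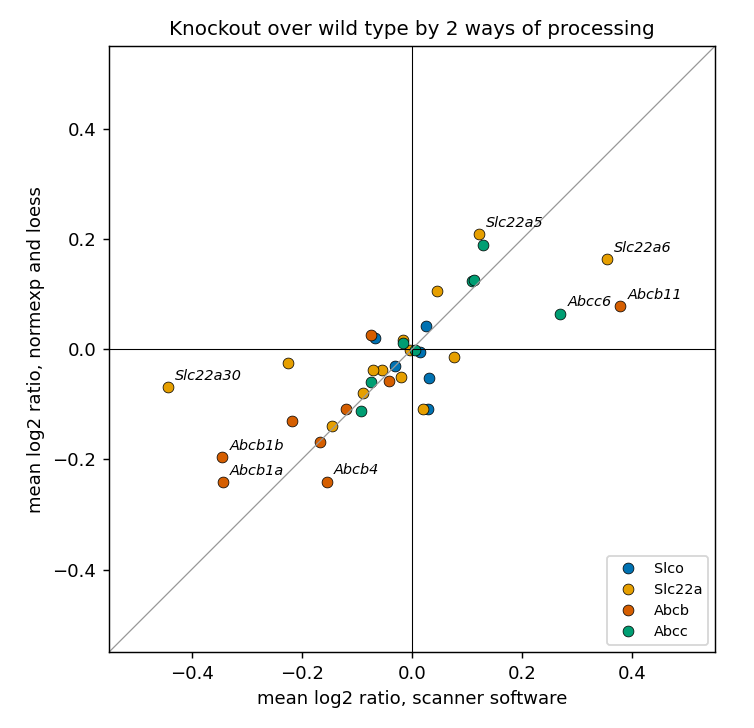
Mean log2 ratio of knockout-labelled RNA over wild-type-labelled RNA for each tested transporter, from the scanner software's ratios on one axis and from normexp correction with loess on the other. Points away from the diagonal changed with the processing, such as Slc22a30 (-0.44 with the software's ratios and -0.07 with normexp and loess) and Abcb11 (0.38 and 0.08).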

How the data were processed

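Per the labels' protocols, RNA came from QIAzol extraction, and T7-primed cRNA took up a Cy3 or Cy5 nucleotide. The authors' deposited scanner files of array design 014868 come, per the file headers, from Agilent Feature Extraction 11.5.1.1; the submitters' processing notes name version 9.5. The deposited processed intensity of each channel was background-subtracted, detrended and dye-normalized by that software, per the file headers. The deposited log10 ratio is processed Cy5 over Cy3, and the deposited p-value is the software's error-model p for one spot. The deposited value table holds the same log10 ratios, with a largest difference of 5e-04, unturned, with a column median of 0 on both arrays, and no others (0 unmapped columns). Probe positions are the design's, on mm9; RefSeq (GRCm38.p6) was used for names alone.

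Log10 ratios were changed to log2, turned to knockout over wild type, and averaged over spots of a probe without outlier-marked spots (133 and 222 marked). The software's ratio was used because the rule that chose the genes names it and it was already corrected; normexp with loess, run as an alternative, gave an r between the arrays of -0.39 over all genes, against -0.02. A probe was tested if 1 genotype stood well above background on both arrays, on at least 0.5 of its spots, and the brightest such probe stood for its gene. The test was limma 3.58.1 (R 4.3.3), lmFit and eBayes of the mean against 0 with Benjamini-Hochberg adjustment at 0.05, with 1 residual and 12.5 prior degrees of freedom. Both arrays lie on one slide, so no slide effect could be tested. No spot was saturated. Over 245 probes printed 10 times, log2 ratios had a median SD of 0.173 and 0.166. On simulated data the procedure recovered most changes well above 1.5-fold but only a minority of those at 1.5-fold (11 of 50). It also called 36 of 18788 unchanged genes, so the share of unchanged genes among its calls was several times the nominal rate. The measured data gave 38 calls over all genes, so any single call, such as that of a marker gene, is uncertain.

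Genes named with values were, per family, up to 4 higher and up to 4 lower ranked by their lesser array ratio, the best known gut members, and those whose probes differ in sign; the other genes named here (Abcb6, Abcb8, Slc22a8, Slc22a12, Slc22a13, Slc22a16, Slc22a17, Slco1b2, and those given as too dim) were chosen after their values were seen, as were the sequences printed. The transporters and all lists were chosen with earlier results of these data known. Alternatives covered background correction, normalization, filters, probe choice, the value table, size thresholds and leaving out an array. A pair of tested transporters is counted but not reported by name here.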

Additional observations from a re-analysis of the deposited data

How the results depend on the processing

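The count of 0 transporters called by limma held under every alternative run. Transporters at an unadjusted limma p under 0.05 numbered 4 of 59 without the filter on dim probes. With the mean of a gene's probes they numbered 1 of 37, where 1006 of 18988 genes passed. Over all genes limma called 38; it called 0 with normexp and loess (221 at an unadjusted p under 0.05), 0 with loess and no background correction (212), 0 with normexp and median centring (75), 0 without the filter on dim probes (1522), and 16 with the mean of a gene's probes. The cause was not tested. Transporters higher on both arrays numbered 5, 5 and 3 under the first 3 of these. Without the filter, 59 transporters entered; 11 were lower on both arrays and 2 at least 1.5-fold lower, the dim Slc22a7 and Slco1b2. The Abcc median was 0.038 (normexp and loess), 0.020 (loess alone), 0.034 (median centring), 0.021 (a surface over rows and columns removed), 0.0020 (no filter), 0.0058 (both genotypes well above background), 0.037 (mean of probes) and 0.056 (value table). With one array left out, transporters at least 1.5-fold higher numbered 0 to 1, lower 1 to 1, higher at any size 19 to 19 and lower 18 to 18; medians ran from -0.078 to 0.037 for Slco, 0.030 to 0.059 for Slc22a, -0.148 to -0.014 for Abcb and 0.0515 to 0.0516 for Abcc, and limma had no residual degree of freedom, so no test.

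Of 288 recomputed values of named genes 262 kept their direction and 26 turned, all within 10 genes. With normexp and loess these were Abcc1 at 0.011, Abcc9 at -0.0010, Slc22a23 at -0.11, Slco1a4 at -0.052, Slco1a5 at 0.019, Slco2b1 at -0.11 and Slco3a1 at -0.0044. Loess alone gave Abcc1 0.012, Slc22a23 -0.11, Slco1a4 -0.036, Slco2b1 -0.11 and Slco3a1 -0.0035. Median centring gave Abcc9 -0.025, Slc22a23 -0.17, Slco1a4 -0.039, Slco1a5 0.032, Slco2a1 -0.014, Slco2b1 -0.17 and Slco3a1 -0.048. Removing a surface gave Slco3a1 -0.013. The mean of probes gave Abcc1 0.20, Abcc5 -0.038, Abcc9 -0.048, Slc22a15 0.11, Slc22a23 -0.027 and Slco2a1 -0.033. The limma test of within-array ratios is itself paired by array, so no further replicate block was fitted. A slide block was not run, since both arrays share a slide. Dim signal limits the transporters: 22 of 59 could not be tested.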
